A study of Mus musculus with 2 samples.

Results

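The 42 genes described here belong to the secretory pathway and the unfolded protein response. They were taken by symbol from a fixed list and make up 42 of the 32285 genes in each of 2 single-cell libraries. By role they comprise 6 sensors and transcription factors of the response, 12 chaperones and co-chaperones of the endoplasmic reticulum (ER), 7 disulfide and proline isomerases, 8 genes of ER-associated degradation, 8 genes of the translocon, the translocon-associated protein complex and the signal peptidase, and 1 cargo receptor for ER exit. All 42 were found, on 43 rows, because Ddit3 was listed on a further row that held 0 UMIs.

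Both were droplet 3′ RNA libraries of mouse immune cells sorted from small intestinal lamina propria, the connective tissue that underlies the gut epithelium. One library came from CD4-Cre; Aster-A F/F mice and the other from Aster-A F/F mice, the floxed littermates without Cre. Aster-A is the sterol transport protein encoded by Gramd1a, and CD4-Cre is active in the T cell lineage, so the plasma cells of both libraries carry the floxed gene without a driver of deletion of their own. In both genotypes the mice were females aged 10 to 12 weeks, fasted for 16 h and given olive oil by gavage for 2 h, and each library is 1 pool of 3 mice to which 100000 sorted cells per mouse contributed. The sort took live CD45+ cells that lacked EPCAM, Ter119 and CD31. With 1 pool per genotype there is no spread between mice to test against, so no p-value is given. The 95% intervals below cover counting error only. Gramd1a itself stood at 41.3 CPM (UMIs of a gene per 1000000 UMIs) in CD4-Cre and 49.6 CPM in F/F CD4 T-like cells, and at 9.004 and 9.19 CPM in IgA kappa plasma cells. Whether its 3′ tag lies in the floxed part is not given in the sources used here, so this level does not check the labels.

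A plasma cell is a terminally differentiated B cell that secretes antibody. Antibody chains enter the ER through the Sec61 translocon, lose their signal peptide to the signal peptidase, are folded and disulfide-bonded by chaperones and isomerases, and leave in COPII vesicles, while chains that fail to fold are returned to the cytosol and degraded. Unfolded protein in the ER is sensed by IRE1, PERK and ATF6, encoded by Ern1, Eif2ak3 and Atf6. IRE1 splices the mRNA of Xbp1, whose product is needed for the expanded ER of plasma cells, and PERK acts through Atf4 and Ddit3. The UMI counts used here do not tell spliced from unspliced Xbp1.

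The CD4-Cre library held 200580083 UMIs and the F/F library 222838658, and 12526 and 12594 cells passed the filters, with a median of 14031 and 15319.5 UMIs. The libraries shared 47 cell barcodes, 0.375% of CD4-Cre and 0.373% of F/F cells. Plasma-like cells numbered 7369 in CD4-Cre and 8837 in F/F, or 58.8% and 70.2% of the cells. In their 7 clusters 66.6 to 93.8% of cells held a UMI of the plasma marker Tnfrsf17 and 77.1 to 93.6% one of Sdc1, against 1.12 to 5.24% for the T cell gene Cd3e. A further cluster of 949 cells held plasma RNA together with Cd3e in 61.7% of cells and was set aside as a mixture of T and plasma cells. The plasma-like cells were divided by antibody isotype, light chain and cycling state, the last called from at least 4 of 12 cell cycle genes. IgA kappa cells that were not cycling were the main group, with 6073 CD4-Cre and 7108 F/F cells. The other groups were IgA lambda (211 and 246 cells), IgM and IgG together (71 and 75 cells, of which 12 and 4 were IgM), and cycling IgA of either light chain (913 and 1202 cells). Free RNA was heavy in both libraries: barcodes of 150 to 350 UMIs held the plasma gene Jchain at 90.5% and 90.4% of the plasma-like level.

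In IgA kappa plasma cells the 42 genes together took 2.66% of all UMIs in CD4-Cre and 2.55% in F/F, while immunoglobulin genes took 60.3% and 58.3%. As a share of UMIs that were not immunoglobulin, the 42 genes reached 6.71% and 6.11%. In CD4 T-like cells they took 0.710% and 0.715% of all UMIs, and in CD8 T-like cells 0.539% and 0.561%. The order of genes below is one of UMIs, 1 per captured 3′ end, and is not divided by transcript length.

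The chaperones held the top of this order. Hsp90b1, the ER form of HSP90, stood at 3367 CPM in CD4-Cre and 2826 CPM in F/F IgA kappa cells. Mzb1, a B cell co-chaperone of HSP90B1 that aids antibody assembly, followed at 2869 and 2689 CPM. Hspa5, encoding BiP, which binds unpaired heavy chains and holds the sensors inactive, was at 1298 and 1230.2 CPM, and Manf, a secreted ER stress protein that binds BiP, at 1133 and 1041 CPM. The lowest chaperone was Hyou1, a nucleotide exchange factor of BiP, at 66.8 and 59.4 CPM. Both libraries gave nearly the same order, with a chaperone in the first and second place of both.

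Among the genes of protein entry, Ssr4, a subunit of the translocon-associated protein complex, was at 2148 and 2168 CPM in CD4-Cre and F/F IgA kappa cells. Sec11c, a catalytic subunit of the signal peptidase, was at 1955 and 1880.1 CPM, and Sec61b, the beta subunit of the translocon, at 922 and 1132 CPM. Sec61a1, the pore subunit, was the lowest of the 8 at 120 and 128 CPM. Subunits of 1 complex thus differed several-fold in captured UMIs. Txndc5, a thioredoxin-type isomerase, led the isomerases at 1525 and 1597 CPM, and P4hb, which encodes protein disulfide isomerase, closed them at 129 and 129 CPM. Edem1, a mannosidase-like protein that marks misfolded glycoproteins for disposal, led the degradation genes at 471 and 498 CPM. Syvn1, the ubiquitin ligase HRD1, was at 34.2 and 38.4 CPM. Lman1, the lectin that carries glycoproteins out of the ER, was at 503 and 437 CPM.

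Of the sensors and transcription factors, Xbp1 (chromosome 11, 5520659 to 5525893, plus strand, GRCm38) stood apart at 891 CPM in CD4-Cre and 1070.1 CPM in F/F IgA kappa cells. Atf6 had 319 and 311 CPM, Ern1 134 and 145 CPM, Eif2ak3 123 and 158 CPM, and Atf4 84.5 and 92.0 CPM. Ddit3, which encodes the death-associated factor CHOP (chromosome 10, 127290774 to 127296288, plus strand), was the lowest of all 42 genes at 7.80 and 12.8 CPM. A UMI of Ddit3 was seen in 11.1% and 16.9% of IgA kappa cells, against 98.22% and 98.96% for Xbp1. Over the 42 genes the median share of IgA kappa cells with a UMI was 92.9% and 91.6%, but 38.9% and 39.4% once each cell was thinned to 1500 UMIs. In CD4 T-like cells it was 28.1% and 30.5%, and 13.9% and 13.2% after thinning, with free plasma RNA present.

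**Figure D1:**
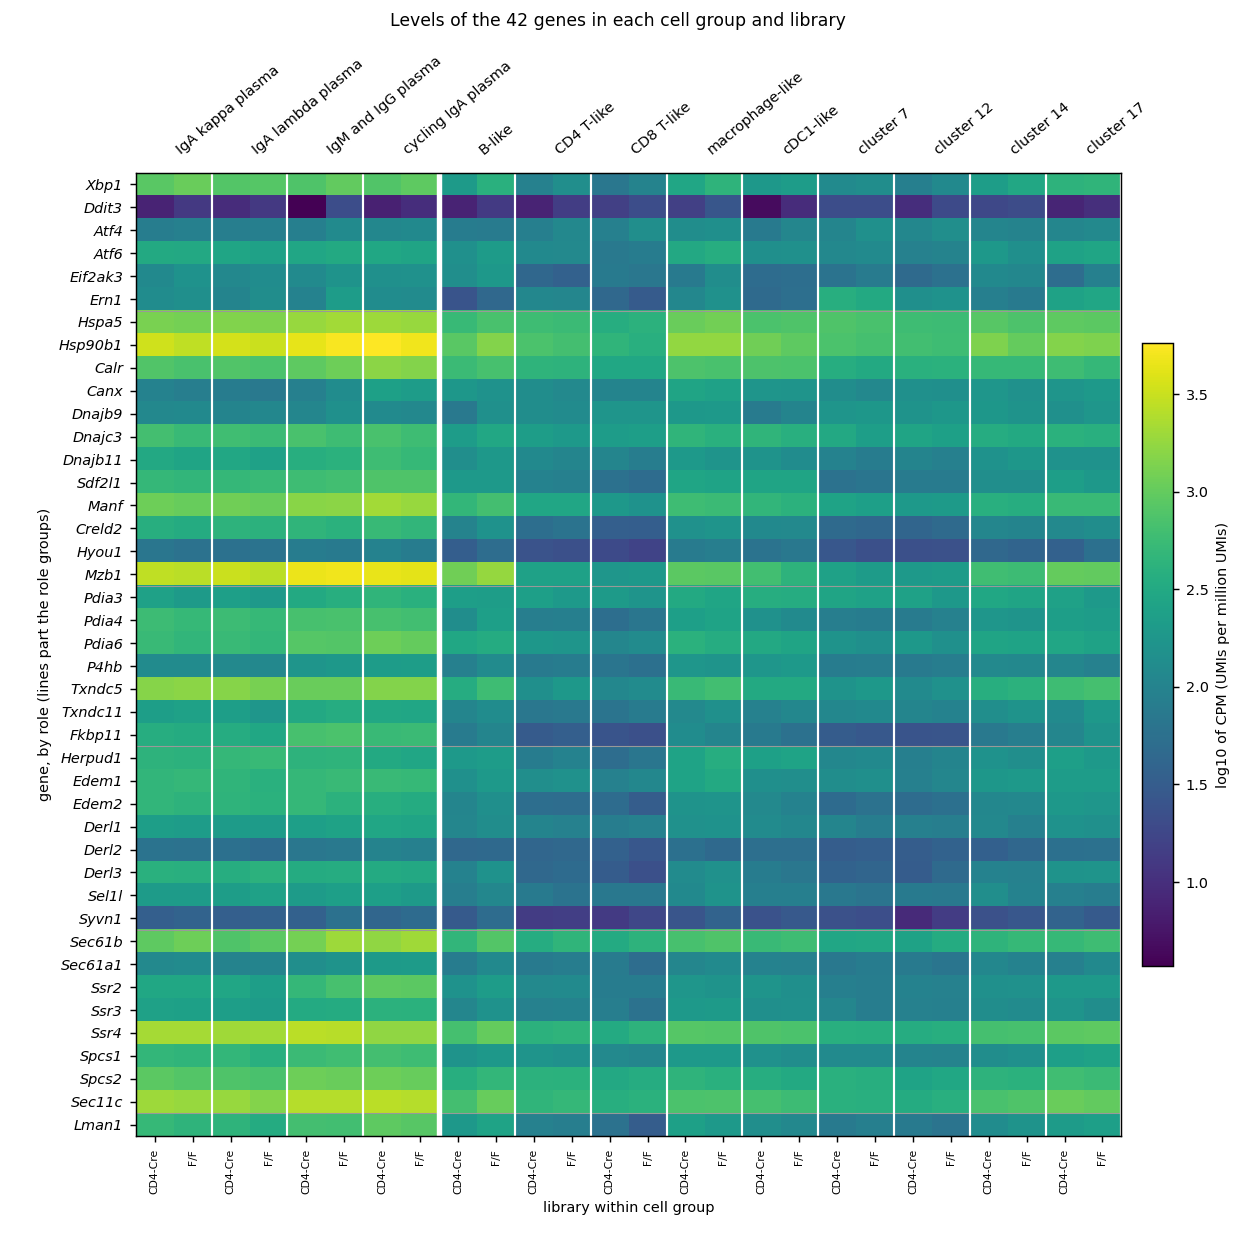
Heat map of the level of each of the 42 genes (rows, in role groups) in each cell group and library (columns, CD4-Cre left of F/F), as CPM over all genes on a log color scale. The plasma cell columns are the brightest for most rows, with Hsp90b1 at 3367 and 2826 CPM and Mzb1 at 2869 and 2689 CPM in IgA kappa cells, while Canx and Atf4 are about as bright in other classes.

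The promoters of 33 of the 42 genes were matched to RefSeq sequence on GRCm38.p6 and searched on both strands of the 250 bases before the start. The ER stress response element (ERSE), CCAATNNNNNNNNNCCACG, is a site bound by ATF6 and XBP1 together with the factor NF-Y. It was found in 9 of the 33 genes, at 10 sites, against 37 of 32851 promoters (0.113%) and 35 of 27025 genes (0.13%) in the whole table. The holders were 6 chaperone genes (Hspa5, Hsp90b1, Calr, Canx, Creld2 and Dnajc3), the isomerase gene Pdia6, and the degradation genes Derl3 and Syvn1. These sites are printed because they are the sequence that part of the list shares. A list of unfolded protein response genes can hold genes listed as targets of ATF6 and XBP1. The share with an ERSE is therefore not independent of the choice of the genes. They are written along the strand that carries the motif, with the fixed motif letters in capitals and 5 flanking bases on each side.
Hspa5, chr2:34772020-34772048, plus strand, 47 to 65 bases before the start: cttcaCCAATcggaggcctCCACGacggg
Hsp90b1, nearer site, chr10:86705528-86705556, plus strand: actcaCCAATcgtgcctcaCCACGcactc
Hsp90b1, farther site, chr10:86705633-86705661, minus strand: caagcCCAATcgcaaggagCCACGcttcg
Calr, chr8:84847070-84847098, plus strand: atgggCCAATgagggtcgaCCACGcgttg
Canx, chr11:50325795-50325823, minus strand: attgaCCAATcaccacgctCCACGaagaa
Creld2, chr15:88819515-88819543, minus strand: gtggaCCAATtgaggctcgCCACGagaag
Dnajc3, chr14:118937822-118937850, plus strand: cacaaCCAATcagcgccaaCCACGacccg
Pdia6, chr12:17266486-17266514, plus strand: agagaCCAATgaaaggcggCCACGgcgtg
Derl3, chr10:75893237-75893265, minus strand: gctagCCAATggggaagtcCCACGgtaga
Syvn1, chr19:6046527-6046555, plus strand: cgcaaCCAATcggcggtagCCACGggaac

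A second element, TGACGTGG, the core of the unfolded protein response element (UPRE) bound by XBP1, was found before Txndc5 and Txndc11, and in 0.563% of all promoters. The ATF4 and CHOP type composite element, TGATGNAA, was found before Herpud1 and Txndc5, and in 3.45% of all promoters. ERSE and UPRE share letters (CCACG and its reverse complement CGTGG), but no member held both. Each match describes letters in these windows and is not a measured binding site. The UPRE stretches are printed because they fall in 2 of the isomerase genes, none of which but Pdia6 held an ERSE.
Txndc5, chr13:38528040-38528057, minus strand: gccgcTGACGTGGcgcta
Txndc11, chr16:11134622-11134639, minus strand: gtggcTGACGTGGagagt

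From cell to cell, several chaperone and isomerase genes moved with the rest of the list, while others of the same roles and the sensors did so little or not at all. For each gene, the Spearman correlation of its level with the summed level of the other 41 genes was taken across IgA kappa cells, within each library, with levels taken per UMI that was not immunoglobulin. The values have no p-value, since cells of 1 library share depth and free RNA. Manf was highest at 0.73 in CD4-Cre and 0.72 in F/F, followed by Sdf2l1, a BiP co-factor, at 0.68 and 0.66. Calr, encoding the lectin chaperone calreticulin, had 0.66 and 0.62. Xbp1 was lowest at -0.18 and -0.13, although it had more UMIs per cell (15.3 and 18.1) than Calr (13.7 and 11.9). Atf6 had -0.09 and -0.12, and Eif2ak3 -0.08 and -0.10. Ern1, Ddit3 and Atf4 lay between 0.02 and 0.08 in both libraries. Txndc5, the isomerase gene with the most UMIs (26.2 and 27.0 per cell), had only 0.11 and 0.13, Dnajb9 0.13 and 0.13, Txndc11 0.15 and 0.13, P4hb 0.20 and 0.19, and Hyou1 0.27 and 0.24. In the degradation group values ran between 0.16 (Syvn1 in F/F) and 0.39 (Derl3 in CD4-Cre). The 9 genes with an ERSE had a median of 0.62 in CD4-Cre and 0.60 in F/F, and the 24 other genes with a promoter entry 0.26 in both. Most of the 9 are chaperone genes, so the sets differ in role. UMIs per cell ran from 0.588 and 0.65 (Syvn1) to 57.9 and 47.8 (Hsp90b1) in the ERSE holders. In the others they ran from 0.134 and 0.216 (Ddit3) to 36.9 and 36.7 (Ssr4). The part of level and role in this difference was not tested, and no correlations of genes outside the list were taken. Within the ERSE holders Canx, the membrane lectin chaperone calnexin, was low at 0.12 and 0.15, with 1.65 and 1.46 UMIs per cell.

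**Figure D2:**
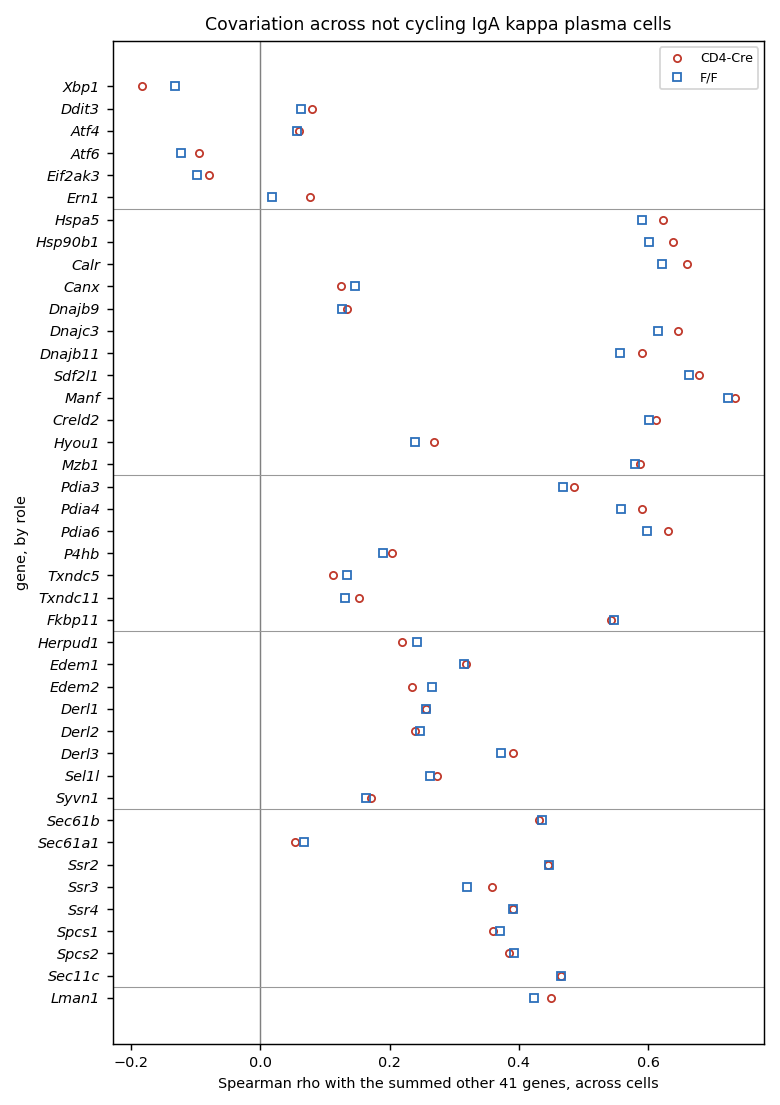
Spearman rho of each gene with the summed other 41 genes across IgA kappa cells that were not cycling (x axis, no unit; rows are genes in role groups; circles CD4-Cre, squares F/F). Most chaperone genes lie between 0.56 and 0.73, Canx, Dnajb9 and Hyou1 lie lower, the 6 sensors and factors lie between -0.18 and 0.08, and the libraries lie close together for each gene.

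Compared with other immune classes, plasma cells held more RNA of most of the 42 genes. Against CD4 T-like cells, 33 of 42 were at least 2-fold higher in plasma-like cells in both libraries, a size passed by 5.5% of the 10970 genes compared, and 0 were 2-fold lower, a size passed by 53.6%. The median log2 ratio of the 42 was 1.65, against -1.23 over all genes. Xbp1 was at 863 and 1029 CPM in CD4-Cre and F/F plasma-like cells and at 94.9 and 141 CPM in CD4 T-like cells, a ratio of 9.09 and 7.29. Fkbp11, a proline isomerase of the ER, was at 397 and 395 CPM against 30.4 and 34.6 CPM, a ratio of 13.1 and 11.4. Mzb1 was at 3222 and 3075 CPM against 248 and 248 CPM, a ratio of 12.99 and 12.4. These 3 genes had the largest ratio of their role group, and in each the 2 plasma-like values lay above both T cell values.

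As CPM over all genes, not all members were plasma-biased. Per UMI that was not immunoglobulin, 38 of 42 were at least 2-fold higher than in CD4 T-like cells, beside 13.6% of all genes. The values that follow are CPM over all genes. Canx stood at 124 and 116 CPM in CD4-Cre and F/F plasma-like cells and at 138 and 119 CPM in CD4 T-like cells. Atf4 stood at 89.6 and 98.8 CPM against 87.6 and 115 CPM, so the groups overlapped on this scale. Dnajb9, a BiP co-chaperone that represses IRE1, was at 115 and 119 CPM against 137 and 130.3 CPM. Pdia3, the isomerase that works with calnexin and calreticulin, was at 288 and 249 CPM against 236 and 199.6 CPM.

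The number of plasma-biased genes depended on the class compared. It was 34 against CD8 T-like cells (background 5.65%), 31 against cluster 7 (led by Zbtb16 and Il7r, 6.64%), 33 against cluster 12 (led by Klra7 and Xcl1, 5.96%) and 24 against cDC1-like dendritic cells (7.59%). It was 23 against cluster 14 (led by Gzma and Gzmb, 3.76%), 18 against cluster 17 (with Hs6st2 and Il23r among its leading genes, 2.42%), 15 against macrophage-like cells (2.64%) and 15 against B-like cells (1.96%). The 4 numbered clusters carried markers of several lymphoid types and were left unnamed. Members at least 2-fold lower in plasma-like cells numbered 1 against macrophage-like cells and 1 against cluster 7. They numbered 0 against B-like, CD8 T-like and cDC1-like cells and clusters 12, 14 and 17, where 36.4%, 46.3%, 36.6%, 51.3%, 46.8% and 42.7% of all genes were. Canx had 124 and 116 CPM in plasma-like and 269 and 250 CPM in macrophage-like cells (ratio 0.46 and 0.46), where 41.4% of all genes were 2-fold lower. Ern1 (chromosome 11, 106394650 to 106487852, minus strand) had 133 and 143 CPM in plasma-like cells and 367 and 319.97 CPM in cluster 7, where 50.4% of all genes were 2-fold lower. Ern1 was also high in cluster 17, at 254 and 284 CPM, and low in B-like cells, at 25.1 and 45.0 CPM.

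Over all 9 other classes, 8 of the 42 genes were at least 2-fold higher in plasma-like cells in both libraries, among 15 such genes in 9009 (0.167%). They were the isomerase genes Pdia4, Txndc5 and Fkbp11, the chaperone gene Creld2, the degradation genes Edem2 and Derl3, the cargo receptor gene Lman1 and Ssr4. Their smallest ratio ran between 2.02 for Lman1, against B-like cells, and 2.45 for Fkbp11, against cluster 17. Among those just below the limit were Xbp1 (smallest ratio 1.999), Sdf2l1 (1.97), Ssr2 (1.96) and Hsp90b1 (1.92). Plasma RNA in the other classes, given below, limits how high these ratios can be. Antibody transcripts took 54.9% and 51.9% of the UMIs of CD4-Cre and F/F plasma-like cells, which lowers every other gene on this scale. Per UMI that was not immunoglobulin, 27 members passed against every class, among 180 genes in 9009 (2%). On that scale the counts were 38 against CD4 T-like cells (background 13.6%), 39 against CD8 T-like (14.9%), 37 against cDC1-like (20.9%), 28 against macrophage-like (12.2%) and 34 against B-like cells (8.04%). They were 37 against cluster 7 (17%), 37 against cluster 12 (15.4%), 37 against cluster 14 (12.7%) and 31 against cluster 17 (8.21%). On the same scale 0 members were 2-fold lower in plasma-like cells in any of the 9 classes, beside 19.9% of all genes against CD4 T-like cells and 10.6 to 21.3% over the 9 classes.

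Plasma cell RNA was also found in the other classes, where free RNA and cells captured together cannot be told apart. Jchain, which T cells and macrophages should lack, stood in CD4 T-like cells at 8.33% of the plasma-like level in CD4-Cre and 9.86% in F/F, in macrophage-like cells at 31.8% and 38.9%, and in cluster 17 at 43.7% and 36.6%. A plasma RNA equivalent was computed for each gene and class as the plasma-like level scaled by this share. In CD4 T-like cells 31 of 42 genes were at least 2 times the equivalent in both libraries, where 97.3% of all genes were. The count was 14 in macrophage-like (85.4% of all genes), 12 in B-like (90.9%) and 5 in cluster 17 cells (83.2%). Read from Igha in place of Jchain, the counts were 24, 8, 12 and 4 for CD4 T-like, macrophage-like, B-like and cluster 17 cells. For Igha the share of all genes was not counted. Canx, Dnajb9, Ddit3 and Atf4 were at least 2 times the equivalent in all 9 classes, as were 75.8% of all genes, but Ddit3 was not when Igha was used, with a lowest value of 1.71. Ern1 in cluster 7 was 32.5 and 27.8 times the equivalent in CD4-Cre and F/F by Jchain, and 18.9 and 16.6 times by Igha.

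Conversely, 9 genes reached 2 times the equivalent in both libraries in no class: Xbp1, Pdia4, Creld2, Edem2, Derl3, Mzb1, Txndc5, Fkbp11 and Lman1. In a single library Pdia4 reached 2.13 times and Lman1 2.08 times. The share of all genes was not counted here or for the lower cut below, so neither count sets the list apart. The equivalent is scaled from the plasma-like level, so these genes overlap with those 2-fold higher over every class. Fkbp11 lay between 0.624 and 1.11 times the equivalent over the 9 classes and both libraries, and Derl3, a subunit of the retrotranslocation channel, between 0.852 and 1.39 times. Xbp1 lay between 1.03 and 1.72 times. Mzb1, named for marginal zone B cells, had its highest multiples in B-like cells, at 1.60 in CD4-Cre and 1.88 in F/F. Fkbp11 and Derl3 were under 1.5 times the equivalent in all 9 classes, so a level of their own there was not detectable beside the plasma RNA.

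**Figure D3:**
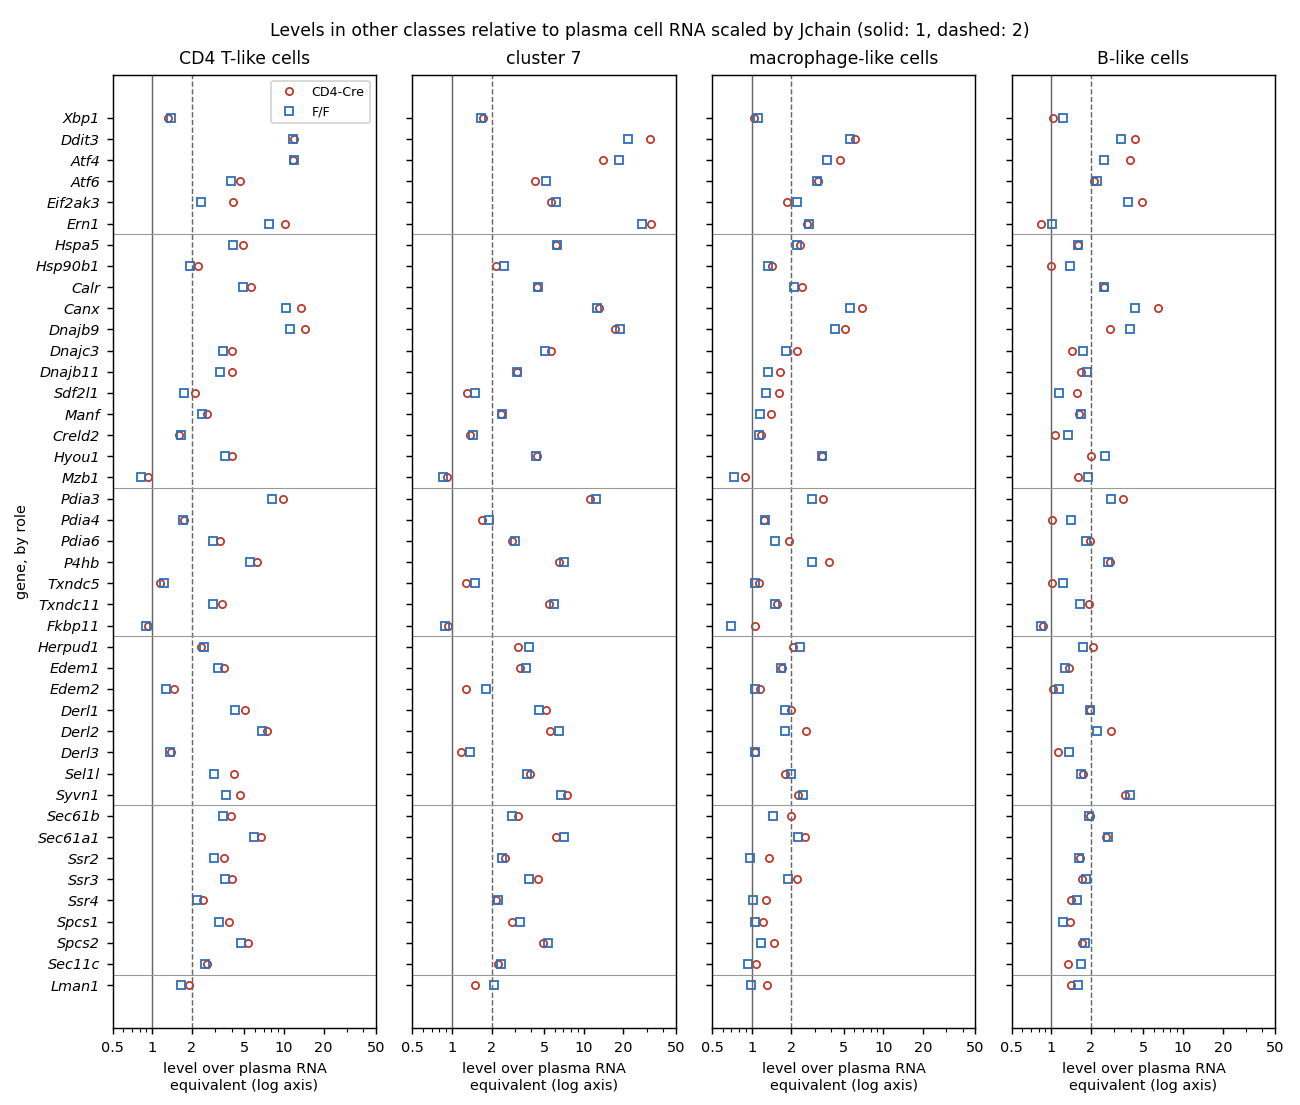
Level of each of the 42 genes in CD4 T-like, cluster 7, macrophage-like and B-like cells divided by the level that plasma cell RNA would give there, read from Jchain. The axis is a log axis, with circles for CD4-Cre, squares for F/F, a solid line at 1 and a dashed line at 2. Fkbp11 and Mzb1 lie near 1 in CD4 T-like and macrophage-like cells. Canx lies at 6.84 and 5.56 and Ddit3 at 6.09 and 5.61 in macrophage-like cells.

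Cycling IgA plasma cells held fewer antibody transcripts than cells that were not cycling, 31.2% and 29.0% of UMIs in CD4-Cre and F/F against 60.5% and 58.5%. As CPM over all genes, 24 of the 42 genes passed the size limit upwards in both libraries (at least 25% higher in cycling cells) and 1 passed it downwards (at least 20% lower), but 66% of all 10656 genes were higher and 5.42% lower. The median log2 ratio of the 42 was 0.43, against 0.64 over all genes. Per UMI that was not immunoglobulin, 2 genes were higher and 21 lower, beside 21.2% and 32.8% of all genes, and the median was -0.36 against -0.15. Leaving out immunoglobulin shifts every gene by the same amount, and on both scales the median of the 42 lay below that of all genes.

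Ssr2, another subunit of the translocon-associated protein complex (chromosome 3, 88575876 to 88588419, plus strand), was the most raised. It stood at 924 and 899 CPM in CD4-Cre and F/F cycling cells and at 292 and 292 CPM in cells that were not cycling, a ratio of 3.17 and 3.08, and of 1.82 and 1.80 without immunoglobulin. Canx stood at 244 and 217 CPM against 95.4 and 85.8 CPM, a ratio of 2.56 and 2.53, and of 1.47 and 1.48 without immunoglobulin. These were the 2 genes that were higher on both scales. Pdia6, an isomerase that also acts on IRE1 and PERK, stood at 1153 and 1025 CPM against 544 and 474 CPM, and its ratio without immunoglobulin was 1.21 and 1.26. Lman1 stood at 944 and 846 CPM against 501 and 433 CPM.

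Herpud1, a scaffold of the degradation complex, was lower on both scales. It stood at 322 and 291 CPM in CD4-Cre and F/F cycling cells and at 431 and 425 CPM in cells that were not cycling, a ratio of 0.75 and 0.69. Ssr4 stood at 1721 and 1704 CPM against 2144 and 2164 CPM, so 2 subunits of the same complex, Ssr2 and Ssr4, had ratios on opposite sides of 1 on both scales. Without immunoglobulin, all 6 sensors and factors and 7 of the 8 degradation genes were lower in cycling cells. Xbp1 stood at 777 and 933 CPM in cycling cells against 888 and 1061 CPM, and Atf4 at 111 and 120.3 CPM against 84.6 and 91.9 CPM, the only factor higher over all genes. Ribosomal protein transcripts took 18.2% and 20.5% of UMIs in cycling cells against 8.32% and 9.78%, and cycling cells held more UMIs, a median of 25034 and 26320 against 16705 and 16459. Cells with 3 or 4 of the 12 cell cycle genes, next to the limit, numbered 175 in CD4-Cre and 215 in F/F.

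**Figure D4:**
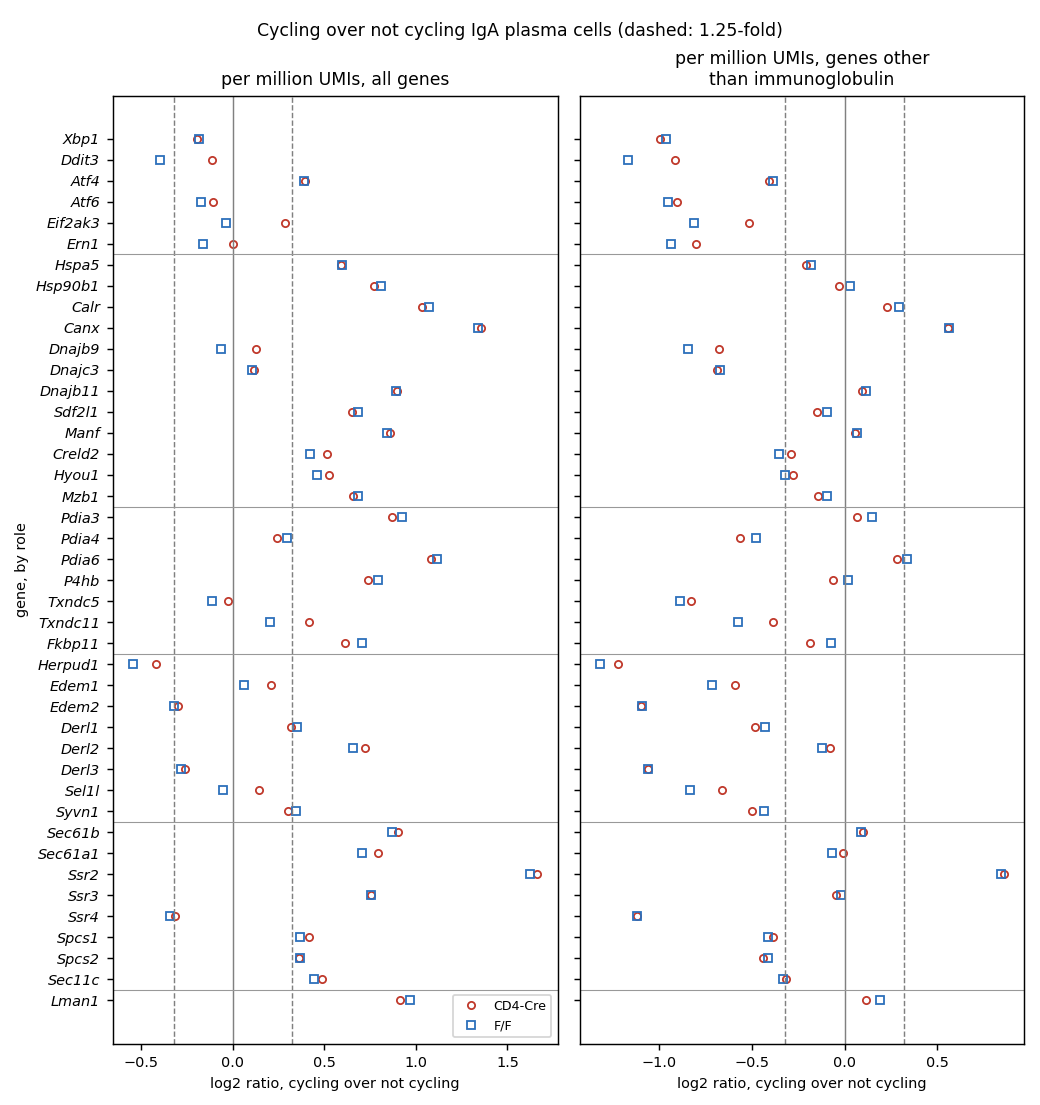
Log2 ratio of cycling over not cycling IgA plasma cells for each of the 42 genes, as CPM over all genes and over genes other than immunoglobulin (x axes; circles CD4-Cre, squares F/F; rows in role groups). Ssr2 (ratios 3.17 and 3.08) and Canx (2.56 and 2.53) lie farthest right, Herpud1 (0.75 and 0.69) farthest left over all genes, and the whole set shifts left when immunoglobulin is left out.

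By isotype, IgM and IgG plasma cells were compared with IgA cells that were not cycling. Over all genes, 15 of the 42 were past the same limit upwards in both libraries and 1 downwards, beside 21.6% and 5.58% of 9275 genes, with a median log2 ratio of 0.31 against 0.22. Immunoglobulin took 55.4% and 45.4% of UMIs in CD4-Cre and F/F IgM and IgG cells and 60.5% and 58.5% in IgA cells. Without it, 5 genes were higher (Fkbp11, Ssr2, Mzb1, Pdia6 and Hspa5) and 3 lower (Txndc5, Xbp1 and Derl3), beside 7.43% and 13.2% of all genes, and the median was 0.03.

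Fkbp11 stood at 687 and 721 CPM in CD4-Cre and F/F IgM and IgG cells and at 356 and 344 CPM in IgA cells, a ratio of 1.93 and 2.10. Mzb1 stood at 4710.3 and 4968 CPM against 2881 and 2690.2 CPM, a ratio of 1.64 and 1.85. Ssr2 stood at 497 and 689 CPM against 292 and 292 CPM, a ratio of 1.71 and 2.36. Both values of each gene in IgM and IgG cells lay above both values in IgA cells. Txndc5 went the other way on both scales, with 1072 and 1081 CPM against 1525 and 1585 CPM, a ratio of 0.70 and 0.68. None of the 6 sensors and factors and none of the 8 degradation genes passed the limit over all genes. The groups held 71 and 75 cells, mostly IgG, and IgM could not be described on its own.

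IgA lambda cells lay close to IgA kappa cells. Over all genes 0 of the 42 passed the limit in either direction in both libraries, beside 0.755% of 9934 genes higher and 22.5% lower, and the median log2 ratio was -0.09 against -0.29. Without immunoglobulin 3 genes were higher (Hspa5, Creld2 and Herpud1) and 0 lower, beside 2.62% and 7.95% of all genes. Herpud1 stood at 501 and 521 CPM in CD4-Cre and F/F lambda cells and at 428 and 421 CPM in kappa cells, a ratio of 1.17 and 1.24 over all genes and of 1.31 and 1.47 without immunoglobulin. Creld2 stood at 428 and 418 CPM against 370.1 and 342 CPM.

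Within plasma cells the clusters, which were built without these 42 genes, differed several-fold in a number of the genes, the 3 sensors among them. Per UMI that was not immunoglobulin, the highest over the lowest cluster was 3.29 and 3.72 in CD4-Cre and F/F for Atf6. It was 2.77 and 3.45 for Eif2ak3, 3.29 and 3.04 for Ssr2, 3.09 and 3.04 for Edem2, and 3.06 and 3.16 for Herpud1. The spread over all genes was not computed. Per UMI that was not immunoglobulin, Atf6 had 427 and 386 CPM in CD4-Cre and F/F cells of cluster 4, led by S phase and mitosis genes such as Top2a, and 1406 and 1438 CPM in cluster 8, led by Il1rapl2 and Nbea. Ern1 had 181 and 176 CPM in cluster 4 and 559 and 665 CPM in cluster 8. Eif2ak3 was likewise highest in cluster 8, at 536 and 710.3 CPM. Xbp1 did not share this pattern, since it was lowest in cluster 4, at 1113 and 1309 CPM, and highest in cluster 1, led by Prg2 and Ly6c2, at 2793 and 2924 CPM. Ssr4 was also highest in cluster 1, at 6619 and 6492 CPM, and Ssr2 highest in cluster 5, led by mitosis genes, at 1451 and 1354 CPM. Cluster 8 had the lowest depth of the plasma clusters, with a median of 10140 UMIs. Atf6, Ern1 and Eif2ak3 span 163, 93.2 and 60.7 kb of the genome, against a median of 14.1 kb over the 42 genes, and Spearman's rho across the 42 genes between span and the log2 ratio of cluster 8 over cluster 1 was 0.39 in CD4-Cre and 0.43 in F/F. The sources used here do not say whether reads in introns were counted. The part of gene span in these levels was not tested.

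Between the genotypes, 40 of the 42 genes differed by less than the size limit in IgA kappa plasma cells. Comparing CD4-Cre with F/F, 0 were at least 25% higher and 2 at least 20% lower, beside 2.98% and 9.84% of 11371 genes. Without immunoglobulin 2 were higher (Pdia3 and Hsp90b1) and 1 lower (Ddit3), beside 4.92% and 6.18% of all genes. The ratio was above 1 for 27 genes and below 1 for 15, and the median log2 ratio was 0.05, against -0.03 over all genes. Ddit3 had 7.80 CPM in CD4-Cre and 12.8 CPM in F/F, a ratio of 0.611 (95% interval 0.561 to 0.666). Eif2ak3, encoding the kinase PERK, had 123 CPM in CD4-Cre and 158 CPM in F/F, a ratio of 0.776 (0.759 to 0.793). Both belong to the PERK arm. Atf4, which lies between them in that arm, had 84.5 and 92.0 CPM, lower in CD4-Cre as well but within the limit. Over the 13 cell groups that share no cell, its ratio was under 1 in 11 and past the limit downwards in 5. These are RNA levels, and the activity of the arm was not measured.

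Sensors and factors had a median log2 ratio of -0.19, chaperones 0.14, isomerases 0.05, degradation genes 0.03, translocon, complex and peptidase genes 0.02, and Lman1 0.20. The highest ratios were those of Pdia3, with 248 CPM in CD4-Cre and 206 CPM in F/F (ratio 1.204), Hsp90b1, with 3367 and 2826 CPM (1.19), and Dnajc3, a BiP co-chaperone and PERK inhibitor, with 642 and 548 CPM (log2 ratio 0.23). The lowest within the limit were Sec61b, with 922 CPM in CD4-Cre and 1132 CPM in F/F (0.815), and Xbp1, with 891 and 1070.1 CPM (0.833). The lowest chaperone gene was Dnajb9 (0.948), the lowest isomerase gene Txndc11 (0.906) and the lowest degradation gene Syvn1 (0.89). The highest degradation gene was Derl1 (1.08), the highest gene of protein entry Spcs2 (1.11) and the highest sensor Atf6 (1.02). The ERSE holders had a median log2 ratio of 0.15 and the 24 other genes with a promoter entry 0.00.

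**Figure D5:**
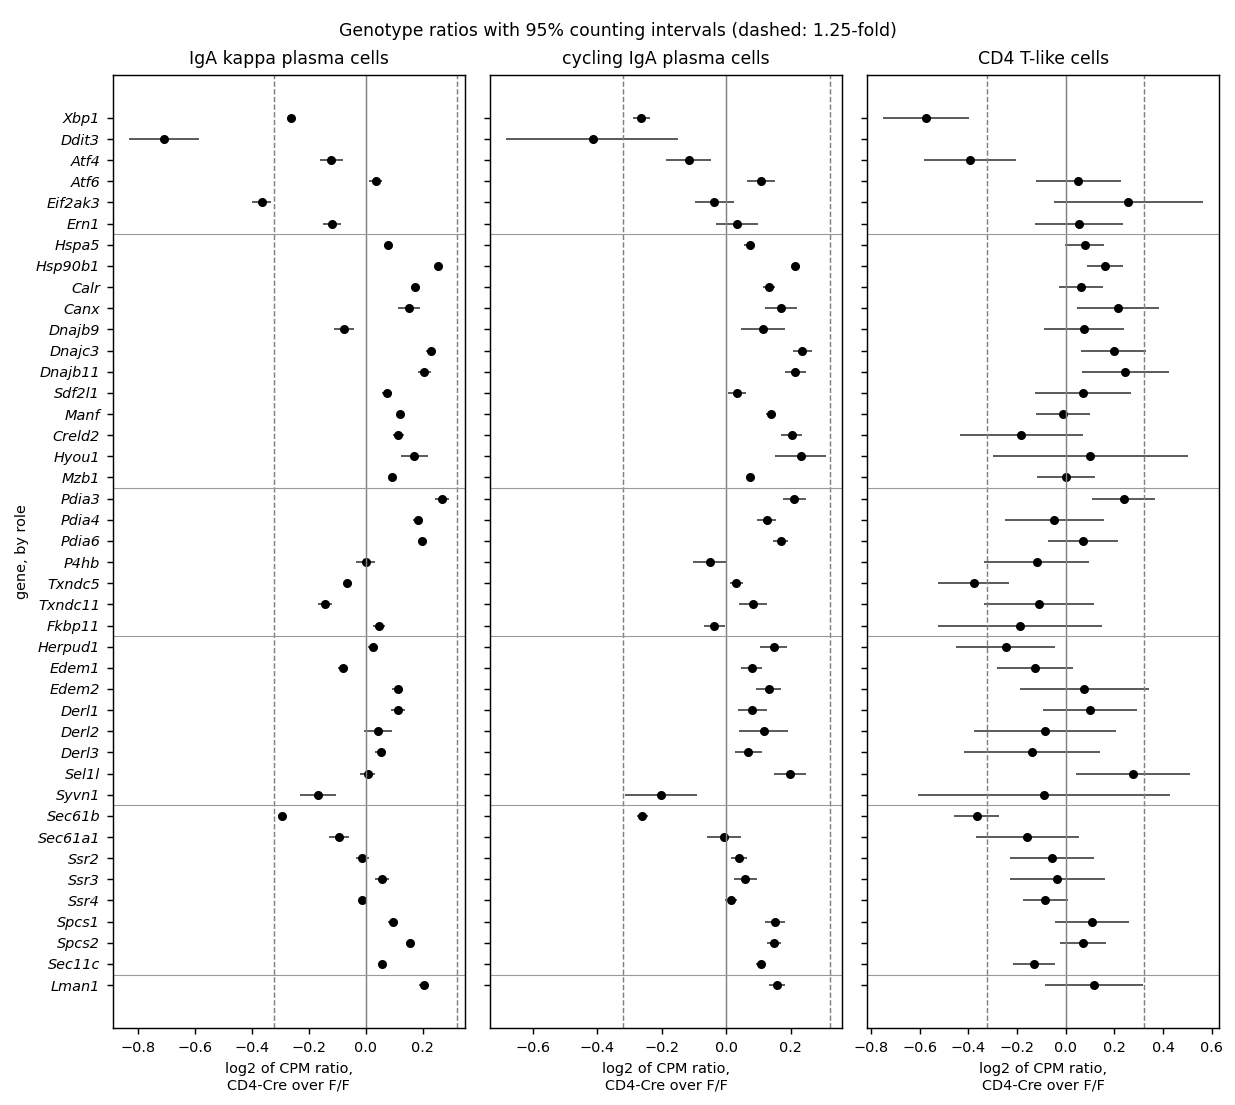
Log2 ratio of CD4-Cre over F/F in IgA kappa plasma cells, cycling IgA plasma cells and CD4 T-like cells, for genes with at least 100 UMIs. The ratio is on the x axis, with rows in role groups. Bars are 95% intervals of counting error, and dashed lines are the size limit. Ddit3 and Eif2ak3 lie below the lower line in IgA kappa cells, at ratios of 0.611 and 0.776, and no gene lies above the upper line.

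Other cell groups gave few shared directions. In cycling IgA cells 0 genes were higher and 1 lower, beside 4.49% and 8.44% of all genes, and that gene was Ddit3, at 7.27 CPM in CD4-Cre and 9.69 CPM in F/F. Over the 13 cell groups that share no cell, Xbp1, Ddit3 and Sec61b had a ratio under 1 in all 13, and 0 genes had a ratio over 1 in all 13. Of the 8463 genes with a UMI in both libraries of every group, 1.06% had a ratio under 1 in all 13 and 0.39% over 1. Xbp1 was past the limit downwards in 7 of them, with log2 ratios between -0.96 and -0.03. Sec61b was lower in 5, with log2 ratios between -0.77 and -0.08. Ddit3 had at least 100 UMIs in 4 groups and was lower in all 4, among them macrophage-like cells with 15.1 CPM in CD4-Cre and 26.5 CPM in F/F. Pdia3 had a ratio over 1 in 12 groups. Free plasma RNA is shared by all groups of 1 library, so these groups are not independent, and the Xbp1 level in the other classes was close to the plasma RNA equivalent. Xbp1 in CD4 T-like cells, at 94.9 CPM in CD4-Cre and 141 CPM in F/F, is such a case. The share of ribosomal protein transcripts was also lower in CD4-Cre in 11 of the 13 groups, for example 8.34% against 9.84% in IgA kappa cells. Pancreatic acinar transcripts stood at 0.996 CPM in CD4-Cre and 632 CPM in F/F IgA kappa cells. Gastric transcripts went the other way, at 85.3 CPM in CD4-Cre and 13.1 CPM in F/F IgA kappa cells. The part of ribosomal protein, acinar and gastric transcripts in these ratios was not tested.

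The Cre acts in the T cell lineage, to which CD4 T-like and CD8 T-like cells belong. Clusters 7, 12 and 14 may also hold such cells, with a UMI of the T cell gene Trac in 46.1%, 43.6% and 63.3% of cells. In CD4 T-like cells, 0 of 41 genes were higher in CD4-Cre and 4 lower, beside 12% and 6.08% of all genes. The 4 were Xbp1, Atf4 (87.6 CPM in CD4-Cre and 115 CPM in F/F), Txndc5 (144 and 187 CPM) and Sec61b (352 and 453 CPM). In CD8 T-like cells, with 363 CD4-Cre and 141 F/F cells, 4 of 33 were higher and 5 lower, beside 25.6% and 9.87%. Macrophage-like cells had 1 higher and 8 lower of 42, beside 10.7% and 11.4%. The 1 higher was Fkbp11, whose level there was 1.06 times the plasma RNA equivalent in CD4-Cre and 0.693 times in F/F. The 8 lower included Ddit3, Eif2ak3 (75.7 CPM in CD4-Cre and 135 CPM in F/F) and Xbp1. Counts in cDC1-like cells were 3 higher and 2 lower of 41, beside 6.18% and 8.2%.

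B-like cells were the exception in number, with 0 higher and 32 of 41 lower in CD4-Cre, beside 41.8% and 16.7% of all genes, and a median log2 ratio of -0.47. Jchain also stood lower there, at 11712 CPM in CD4-Cre and 15139 CPM in F/F, as did the immunoglobulin share, at 13.97% and 19.6%, and the cells numbered 169 and 80. The part of plasma RNA in this difference was not tested. IgM and IgG cells had 0 higher and 9 of 41 lower, beside 4.77% and 39.9%, and IgA lambda cells 3 higher and 2 lower of 42, beside 13.7% and 8.76%. Among unnamed clusters, cluster 7 had 3 higher and 2 lower of 41 (11.3% and 7.56%), cluster 12 had 2 and 3 of 39 (15.2% and 7.14%), cluster 14 had 4 and 1 of 40 (19.3% and 9.14%), and cluster 17 had 0 and 3 of 37 (9.36% and 15.6%).

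The 6 lists of neighbouring genes of the pathway were read in the same way. In IgA kappa cells, CD4-Cre against F/F, other ATF4 and integrated stress response genes had 0 higher and 5 lower of 24, beside 2.98% and 9.84% of all genes, and a median log2 ratio of -0.05 against -0.03 over all genes. Atf3, a stress-induced factor, was among the 5, at 3.13 CPM in CD4-Cre and 4.66 CPM in F/F. Nupr1, a stress gene also expressed by pancreatic acinar cells, was at 0.987 CPM in CD4-Cre and 7.48 CPM in F/F, and the part of acinar transcripts, given above, was not tested. Genes of the signal recognition particle and translocation had 0 higher and 1 lower of 15, namely Sec61g, the gamma subunit of the translocon, at 476 CPM in CD4-Cre and 605 CPM in F/F. The oligosaccharyltransferase list, which attaches and trims glycans, had 1 higher (Rpn1) and 1 lower (Ost4) of 16. Other folding enzymes had 1 higher and 0 lower of 15, the 1 being Pdia5 at a low level, 0.699 CPM in CD4-Cre and 0.449 CPM in F/F. Other degradation genes and COPII transport genes had 0 of 14 and 0 of 28 in either direction.

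Neighbours at least 2-fold higher in plasma-like than in CD4 T-like cells were counted beside 33 of the 42 genes and 5.5% of all genes. The counts were 3 of 15 for translocation, 5 of 16 for glycan transfer, 6 of 14 for folding enzymes, 2 of 14 for degradation, 8 of 28 for COPII transport and 2 of 21 for the ATF4 list. The median log2 ratios, in this order, were 0.63, 0.60, 0.95, -0.18, 0.63 and -0.07, against -1.23 over all genes. The 42 genes and the lists were chosen with earlier results of these data known, so these shares do not rank the lists. Kdelr3, a receptor that returns ER proteins from the Golgi, had a ratio of 9.62 in CD4-Cre and 9.56 in F/F, and Prdx4, an ER peroxiredoxin, 6.31 and 6.16. In cycling over not cycling IgA cells, all 16 glycan transfer genes, 25 of 28 COPII genes and 13 of 15 translocation genes were higher over all genes, beside 66% of all genes. Their median log2 ratios were 0.94, 0.66 and 0.68, against 0.64 over all genes. Without immunoglobulin the higher and lower counts were 5 and 2, 1 and 6, and 2 and 4 for these lists, beside 21.2% and 32.8% of all genes.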

How the data were processed

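The authors deposited unfiltered UMI counts made with Cell Ranger 7.2.0 on mm10 (GRCm38), per the submitters' processing notes, which also name Seurat 5.0.1. The deposited counts were whole numbers and were used as given, from 2270301 CD4-Cre and 2307624 F/F barcodes. Cells had at least 1000 UMIs, 500 genes and at most 10% mitochondrial UMIs. They were clustered with scanpy 1.11.5 and leidenalg 0.10.2 (2000 variable genes, 30 components, 15 neighbours, resolution 1, seed 1), without the 42 genes, immunoglobulin genes or 85 genes of free RNA. No doublet caller was run. Clusters were named from marker lists. Isotype and light chain needed 80% of at least 10 chain UMIs.

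UMIs were summed per group and library and divided by the total (CPM), with exact binomial or Clopper-Pearson 95% intervals. A size limit of 1.25-fold (2-fold between classes, in both libraries) and at least 100 UMIs define higher and lower. The 42 genes, the lists and the comparisons were chosen with earlier results of these data known. Described singly are the highest and lowest gene per role group and those past the limit. Ratios and intervals were tried on simulated Poisson counts without variation between cells, mice or free RNA. Such counts follow the model of the intervals, so the trial says nothing of real pools. Positions are from GENCODE M21. Alternatives covered scaling, cell filters, chain and cycling calls, clustering, doublets and size limits. UMIs of 1 cell are not independent, and variation between mice is not covered.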

Additional observations from a re-analysis of the deposited data

Results flagged for a closer look

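Hsp90b1 and Mzb1 moved in opposite directions between the genotypes in different cell classes, and neither difference was tested, since each genotype is 1 pool. Hsp90b1 had a CD4-Cre over F/F ratio of 1.36 in cluster 14 and of 0.598 in B-like cells. Mzb1 had a ratio of 1.45 in cDC1-like cells and of 0.65 in B-like cells. In cDC1-like cells its level was 1.14 times the plasma RNA equivalent in CD4-Cre and 0.823 times in F/F, so a level of its own was not told apart from plasma RNA there. In B-like cells Jchain was lower in CD4-Cre as well, at 11712 CPM in CD4-Cre and 15139 CPM in F/F, and its part in these ratios was not tested.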

How the results depend on the processing

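No paired analysis was possible because each genotype was 1 pool. Leaving out immunoglobulin changed most counts: genotype 2 higher and 1 lower, IgM and IgG 5 and 3, lambda 3 higher, cycling 2 and 21, every class 27. At most 5% mitochondrial UMIs gave 2 lower in cycling and 5 over every class. A 95% chain share gave 4 higher in IgM and IgG (37 and 26 cells left) and 3 lower in lambda. Calling cycling at 6 of 12 genes gave 3 lower. Over every class, 14 passed without the 5% deepest cells, 18 with mean CPM per cell, and 18 over classes with Jchain under 25% of plasma, a setting chosen after seeing the data. With the 42 genes among the variable genes, 19 passed against CD4 T-like cells, where Jchain then stood at 8268 and 8590 CPM in CD4-Cre and F/F, against 4275 and 4762 CPM. A 1.5-fold limit gave 1 lower by genotype, 4 and 0 for IgM and IgG, and 0 lower in cycling. A 4-fold limit gave 0 over every class, beside 0 of 9009 genes, and 15 against CD4 T-like cells. With Jchain in cluster 17 at 43.7% and 36.6% of the plasma-like level, the count over every class could hardly be other than 0. Thinning to 1500 UMIs lowered median shares of cells to 38.9% and 39.4% in IgA kappa cells and to 13.9% and 13.2% in CD4 T-like cells. Reading plasma RNA from Igha, chosen after seeing the data, left 8 genes at 2 times the equivalent in macrophage-like cells. Without plasma cells holding 2 markers of another class, IgM and IgG had 22 higher and 1 lower, and no count moved by over 1.5 times. The same held for every count without cells that held acinar RNA, also chosen after seeing the data. Causes were not tested. Over all alternatives the median genotype log2 ratio lay between 0.05 and 0.13, that of Ddit3 between -0.77 and -0.64, of Eif2ak3 between -0.43 and -0.29 and of Xbp1 between -0.28 and -0.19. Depth limits Ddit3 most.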
